A study of Mus musculus with 8 samples.

Results

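Tumour ATAC peaks inside WT H3K9me2 peaks are places where the accessible chromatin of tumour regulatory T cells (Treg) and a mark of silent chromatin were called at the same position. They were chosen as the autosomal ATAC peaks of tumour Treg whose centre lay inside an H3K9me2 peak of at least 2 of the 3 wild-type (WT) lists. There were 400 of them among 27012 autosomal tumour ATAC peaks, or 1.48% (95% exact binomial interval 1.34 to 1.63%). They are called WT-marked ATAC peaks here, and the remaining 26612 are called the other peaks. The WT H3K9me2 lists and the tumour ATAC list chose them, so values from those lists are given as a description and without a test.

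The H3K9me2 libraries came from Treg sorted out of tumours of C57BL/6 mice that were 8 to 12 weeks old. There were 3 libraries of genotype JMJD1CTregcKO, in which Jmjd1c is knocked out conditionally in Treg (cKO), and 3 WT libraries, genotype JMJD1CWT. ATAC-seq was done in 1 tumour and 1 spleen library of Treg, both JMJD1CWT, of that strain and age range, so no ATAC value has a replicate and none comes from cKO cells. Cells were enriched on magnetic beads and then sorted by fluorescence. The labels name neither the promoter that drives the recombinase nor the tumour, and they do not say that the numbered libraries came from separate mice. P-values therefore measure the spread between these libraries, which may be technical. The library names in the file headers give cKO1 and cKO3 the same knockout number, so cKO1 and cKO3 may share a mouse.

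H3K9me2, dimethylation of lysine 9 on histone H3, is laid down by the methyltransferases EHMT1 and EHMT2 and removed by JmjC-domain demethylases, of which Jmjd1c is counted as a family member. It forms broad domains over silent, gene-poor chromatin and is usually low at active promoters and enhancers. ATAC-seq reads accessible DNA, where a transposase can insert adapters, and CUT&RUN reads the DNA that an antibody-guided nuclease releases. Treg are CD4 T cells that carry the transcription factor Foxp3, hold other lymphocytes in check and gather in many tumours. Both assays pool many cells, so an open position and a marked position need not lie in the same cells, and a smaller number of marked cells cannot be told apart from less mark per cell.

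The H3K9me2 libraries held 24774509 to 30313851 tags and the ATAC libraries 11293674 tags in tumour and 11068821 in spleen. Every peak list was made by the authors in 1 library alone and without a control library. The deposited H3K9me2 lists held 109816 to 178546 peaks. The median peak was 628 to 635 bp long, and every listed peak stood at least 2.01-fold over the surrounding 10 kb. They therefore record local enrichment, and a place inside an even, broad domain can be missing from them. Of 5 Treg markers, Foxp3, Il2ra, Ikzf2 and Tnfrsf18 had 2 to 14 tumour ATAC peaks within 5 kb and Ctla4 had 0. The B cell markers Cd79a and Pax5 had 1 peak each, of 81.0 and 11.5 normalized tags. Of 5 marker genes each, myeloid cells had 2 with a peak (Spi1 and Itgam), CD8 T and NK cells 1 (Eomes) and melanocytes 2 (Mitf and Pmel), and the markers Csf1r, Lyz2, Cd8a, Ncr1, Tyr and Dct had 0. Summed over their peaks, Foxp3 had 110.3 normalized tags, Il2ra 107.1, Ikzf2 351.2 and Tnfrsf18 258.5. Spi1 had 80.6, Itgam 30.07, Eomes 28.3, Mitf 131 and Pmel 233.7. The values of Mitf and Pmel thus lay within the range of the Treg markers that had a peak. Foxp3 lies on the X chromosome, which the choice left out. None of the other markers named here had a WT-marked ATAC peak. They had at most 14 peaks each, too few to set a count of 0 apart from the 1.48% of all peaks. The part of admixed cells in the results was not tested.

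Promoters are shown first, since H3K9me2 is usually low at open promoters that are rich in CpG sites. The windows run from 250 bases before to 50 bases after a gene's start, come from RefSeq (GRCm38.p6, the build mm10), and each holds the centre of a WT-marked ATAC peak. They were chosen after the values were seen, to show 2 genes of the immune lists, 1 promoter that at least 2 cKO lists also held and 1 that no cKO list held. Each is written 5′ to 3′ on the strand of its gene, with CpG sites in capitals. Nfkbia (chr12:55492598-55492897, minus strand) encodes IκBα, which keeps NF-κB in the cytoplasm. Entpd1 (chr19:40612116-40612415, plus strand) encodes CD39, an enzyme on the Treg surface that degrades extracellular ATP. Prcp (chr7:92875003-92875302, plus strand) encodes a lysosomal carboxypeptidase. Qdpr (chr5:45450180-45450479, minus strand) encodes the reductase that regenerates tetrahydrobiopterin.
Nfkbia: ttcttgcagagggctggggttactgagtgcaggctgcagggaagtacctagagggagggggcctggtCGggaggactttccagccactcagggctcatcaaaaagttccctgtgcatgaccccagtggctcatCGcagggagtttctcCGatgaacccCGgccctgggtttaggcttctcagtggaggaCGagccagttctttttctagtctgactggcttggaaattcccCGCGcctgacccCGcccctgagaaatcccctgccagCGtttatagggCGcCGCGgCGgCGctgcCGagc
Entpd1: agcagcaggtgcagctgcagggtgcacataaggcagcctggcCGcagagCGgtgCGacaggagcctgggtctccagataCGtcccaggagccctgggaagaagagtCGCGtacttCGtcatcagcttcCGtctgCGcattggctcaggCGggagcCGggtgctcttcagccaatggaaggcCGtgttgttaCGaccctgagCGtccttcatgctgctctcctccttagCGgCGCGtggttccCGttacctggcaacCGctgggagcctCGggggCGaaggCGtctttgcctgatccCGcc
Prcp: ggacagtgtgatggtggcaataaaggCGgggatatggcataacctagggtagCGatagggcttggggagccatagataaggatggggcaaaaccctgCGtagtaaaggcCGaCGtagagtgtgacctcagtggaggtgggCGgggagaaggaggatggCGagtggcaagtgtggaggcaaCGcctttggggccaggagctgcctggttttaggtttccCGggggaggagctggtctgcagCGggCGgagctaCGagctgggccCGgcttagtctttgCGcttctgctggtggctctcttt
Qdpr: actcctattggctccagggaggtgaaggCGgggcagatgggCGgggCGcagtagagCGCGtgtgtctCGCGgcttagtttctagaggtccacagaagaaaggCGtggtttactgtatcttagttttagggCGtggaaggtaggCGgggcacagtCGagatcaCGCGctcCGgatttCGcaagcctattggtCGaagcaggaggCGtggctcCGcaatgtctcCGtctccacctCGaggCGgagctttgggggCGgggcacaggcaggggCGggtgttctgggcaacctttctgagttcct
The Nfkbia window held 15 CpG sites at a GC content of 61.0%, Entpd1 23 at 64.0%, Prcp 14 at 59.7% and Qdpr 23 at 60.7%. The median of all 31396 autosomal windows was 7 CpG sites at 53.0% GC, so all 4 were richer in CpG than the median promoter. They were not richer than other open promoters. The 7112 windows with another tumour ATAC centre had a median of 23 CpG sites (quartiles 17 and 30). Entpd1 and Qdpr equalled that median, and Nfkbia and Prcp lay below the lower quartile.

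At the Nfkbia promoter the tumour ATAC peak had 191.7 normalized tags, that is, tags scaled to a common library total. It lay in H3K9me2 peaks of cKO3 (1.88 normalized tags), WT1 (2.39) and WT3 (3.55), and of neither cKO1, cKO2 nor WT2. The Entpd1 ATAC peak had 119.1 tags and lay in the lists of WT2 (1.75) and WT3 (1.69) and of no cKO library. Its centre was also 9 bp from an end of Tctn3, a gene of the ciliary transition zone, so the peak belongs to both genes by position. Prcp had 319.6 ATAC tags and was held by cKO1 (2.02), cKO2 (1.65), WT2 (4.20) and WT3 (2.20). Qdpr had 301.5 ATAC tags and was held by WT1 (2.74) and WT2 (4.20) alone. These 4 promoters were thus strongly open, and their H3K9me2 peaks held few tags each.

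Most WT-marked ATAC peaks rested on exactly 2 WT lists. That was so for 371 (92.8%), while 29 (7.25%) lay in all 3. WT2 and WT3 shared 193 of them, WT1 and WT2 153, and WT1 and WT3 112. Over all autosomal tumour ATAC centres, the lists held 6.14% in cKO1, 7.17% in cKO2, 5.41% in cKO3, 3.62% in WT1, 7.07% in WT2 and 5.76% in WT3. WT1 was the lowest of the 6, and cKO2 and WT2 were the highest and nearly equal. The share on single chromosomes ran between 1.01% (17 of 1680 peaks on chromosome 4) and 2.27% (28 of 1232 on chromosome 13).

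Like the WT H3K9me2 peaks at other ATAC centres, those that held them had few tags and stood out from their neighbourhood. The median normalized tag count of these H3K9me2 peaks was 2.39 in WT1, 2.63 in WT2 and 2.54 in WT3, against 4.11, 3.50 and 3.21 over the whole WT lists. Their median fold over the surrounding 10 kb was 4.62, 3.88 and 3.94, against 2.51, 2.73 and 2.79 over the whole lists. The WT H3K9me2 peaks that held the other ATAC peaks had still fewer tags, with medians of 1.88, 2.10 and 2.03, and folds of 5.0, 4.04 and 4.38. Few tags and a large contrast to the flanks were thus shared by the WT peaks at ATAC centres of both kinds, and all these medians follow from the lists that made the choice. WT1 to WT3 held 236, 317 and 276 of the 400 centres, and cKO1 to cKO3 held 85, 70 and 63. The H3K9me2 peaks at those cKO-held centres had medians of 4.64, 4.29 and 4.34 tags. Over the whole cKO lists the medians were 4.64, 3.46 and 3.96. The cKO H3K9me2 peaks that held the other ATAC peaks had medians of 2.83, 2.31 and 2.64 tags. The lists held different centres, and their peaks differ in length and number. These medians therefore do not compare the amount of mark between genotypes.

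**Figure D1:**
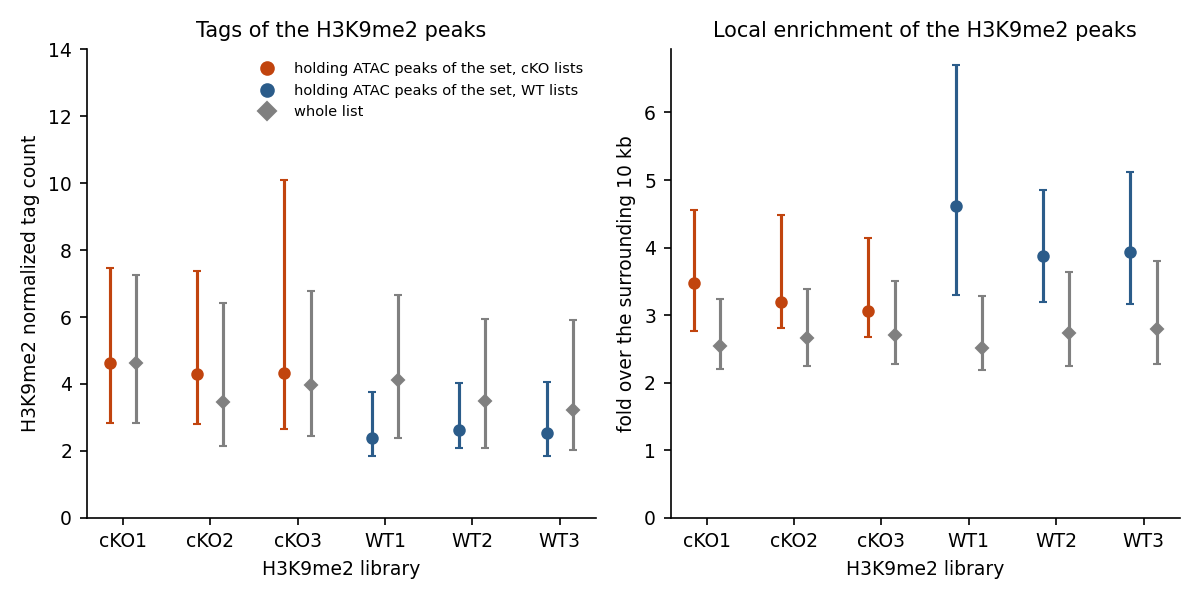
H3K9me2 peaks that hold the centre of a WT-marked ATAC peak (circles, orange for cKO lists and blue for WT lists) beside all autosomal peaks of that list (grey diamonds), as medians with quartiles. Left, normalized tag count of the H3K9me2 peak; right, its fold over the surrounding 10 kb. The WT circles lie at 2.39 to 2.63 tags, below their lists, and at 3.88 to 4.62-fold, above them.

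The knockout lists also covered a part of these positions. Of the 400 WT-marked ATAC peaks, 85 (21.3%) lay in a cKO1 peak, 70 (17.5%) in a cKO2 peak and 63 (15.8%) in a cKO3 peak. Over all peaks the percentages called were 6.14, 7.17 and 5.41, and over the other peaks alone they were 5.91%, 7.01% and 5.26%. Each cKO library thus held a larger share of the WT-marked ATAC peaks than of the rest, by 3.60, 2.50 and 3.0 times. At least 2 of 3 cKO lists held 43 of the 400 (10.8%, exact interval 7.89 to 14.2%), beside 2.12% of all peaks and 2.0% of the other peaks. At least 1 cKO list held 168 (42.0%, beside 16.4% of all peaks) and all 3 held 7 (1.75%, beside 0.155%). No cKO list held the remaining 232 (58.0%, beside 83.6%). With 1 cKO list left out and both others required, the share was 3.0% without cKO1, 5.25% without cKO2 and 6.00% without cKO3, against 0.661%, 0.710% and 0.887% of the other peaks. Intervals cover counting error only, and neighbouring peaks are not independent.

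The number of WT lists was set beside coverage in cKO. At least 1 cKO list held 44.8% of the ATAC peaks in all 3 WT lists and 41.8% of those in exactly 2, beside 16.4% of all peaks, so these shares were nearly equal. For at least 2 cKO lists the shares differed more, beside 2.12% of all peaks. Of the 29 ATAC peaks in all 3 WT lists, 5 lay in 2 cKO lists and 4 in all 3, together 31.0% (interval 15.3 to 50.8%). Of the 371 in exactly 2 WT lists, 31 lay in 2 cKO lists and 3 in all 3, together 9.16%. Without the 12 peaks of very high H3K9me2 listed further on, the shares were 19.05% (4 of 21) and 8.99% (33 of 367). Read the other way, 574 tumour ATAC peaks lay in at least 2 cKO lists. Of those, 43 (7.49%, interval 5.47 to 9.96%) were WT-marked ATAC peaks and 394 (68.6%) lay in no WT list, against 85.1% of all peaks in no WT list. The lists of 1 genotype also differed among themselves, and 3615 ATAC peaks lay in 1 WT list alone.

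Choosing by WT alone favours WT, so for the comparison of genotypes no library was scored on ATAC centres that it had helped to choose. Each WT library still helped to choose in the other pairs, and no cKO library did. For each pair of WT lists, the ATAC centres in both were taken, and the share of them in every library outside the pair was counted. The cKO libraries, averaged over the 3 pairs, held 23.2% (cKO1), 17.6% (cKO2) and 19.3% (cKO3). The WT libraries, each left out of the pair that chose, held 15.03% (WT1), 25.9% (WT2) and 18.95% (WT3). The ranges overlapped, with WT1 the lowest and WT2 the highest. Divided by each library's share over all centres, the values were 3.78, 2.46 and 3.56 in cKO and 4.15, 3.66 and 3.29 in WT. They averaged 3.27 ± 0.709 in cKO and 3.70 ± 0.434 in WT (SD, n = 3 each). The difference was -0.43 (two-sided exact permutation test, p = 0.5, where 3 against 3 cannot go below 0.1). The 3 WT values share 1 count, the 29 ATAC peaks in all 3 WT lists, over 193, 112 and 153 chosen peaks. Each cKO value averages 3 pairs, and only WT lists chose. The 6 values are thus not independent, and the p-values of this comparison are a rough guide. Without division by the overall share, the means were 20.03 ± 2.88% in cKO and 19.96 ± 5.50% in WT (SD, n = 3 each, exact p = 1). The sign of the scaled difference turned to 0.05 without the same 12 peaks and to 1.53 with lists of equal length, with p = 0.8 in both exact tests. It kept its sign at -71.9 with the higher-scoring 50% of each H3K9me2 list and at -0.59 with any overlap in place of the centre, with an exact p of 0.1 in both, the smallest possible. The first of these settings left 37 ATAC peaks in all, with scaled means of 41.3 in cKO and 113.2 in WT. Its large size therefore rests on few peaks.

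**Figure D2:**
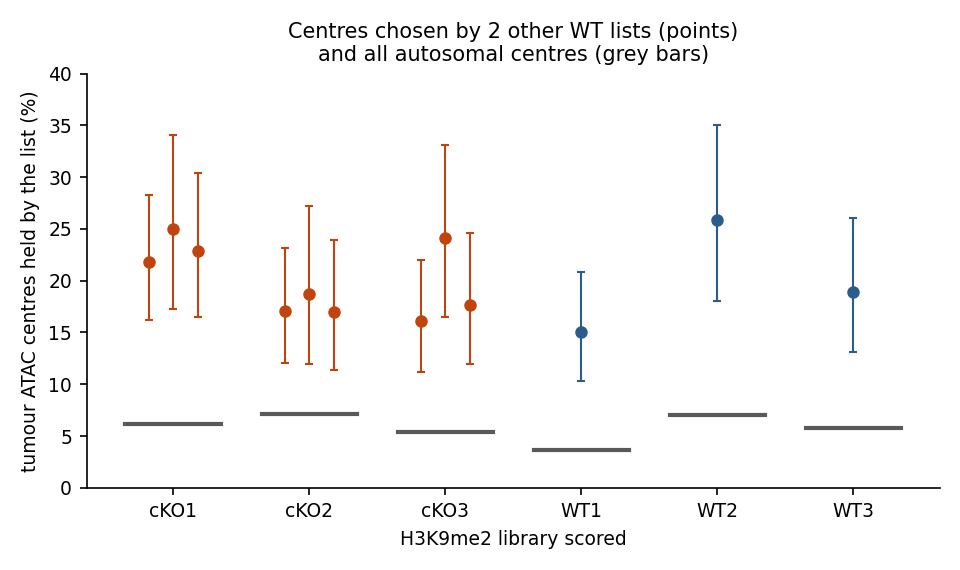
Share of ATAC centres chosen by a pair of WT lists that lay in a peak of a library outside that pair, with 95% exact binomial intervals, for cKO1 to cKO3 (orange, 1 point for each of the 3 pairs) and WT1 to WT3 (blue, 1 pair each). Grey bars give the share over all 27012 autosomal centres. The points of cKO and WT overlap between 15.03 and 25.9%, and all lie above the grey bars.

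The coverage by cKO peaks was narrow around the centre. At the centre of the WT-marked ATAC peaks the cKO lists covered 21.3%, 17.5% and 15.8% of positions (cKO1 to cKO3). At 1 kb before the centre in genome coordinates the values were 7.25%, 5.25% and 5.50%, and at 10 kb they were 7.75%, 7.0% and 5.0%. Around the other peaks the same lists covered 5.91%, 7.01% and 5.26% at the centre, 3.52%, 4.30% and 3.26% at 1 kb and 4.55%, 5.31% and 4.08% at 10 kb. Both sets thus had a local rise at the centre. In the other peaks a dip around 1 kb flanked it. Around the WT-marked ATAC peaks low values lay farther out and were uneven. At 4000 bp after the centre, cKO1 to cKO3 covered 2.5%, 6.0% and 3.75%, against 4.52%, 5.34% and 3.81% around the other peaks. At 4500 bp after it they covered 6.0%, 5.5% and 2.0%, against 4.64%, 5.42% and 3.94%. These positions were picked after the values were seen and were not tested. With the central 2 kb left out, cKO coverage of the surrounding 100 kb was 6.31%, 6.19% and 4.75% around the WT-marked ATAC peaks, against 4.80%, 5.41% and 4.02% around the other peaks. In windows of 1 Mb the cKO coverage around the WT-marked ATAC peaks was 1.02 to 1.13 times that around the others. The surroundings were also sparser, with a median of 17 further ATAC peaks and 9 genes in 1 Mb, against 23 and 12 around the other peaks.

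**Figure D3:**
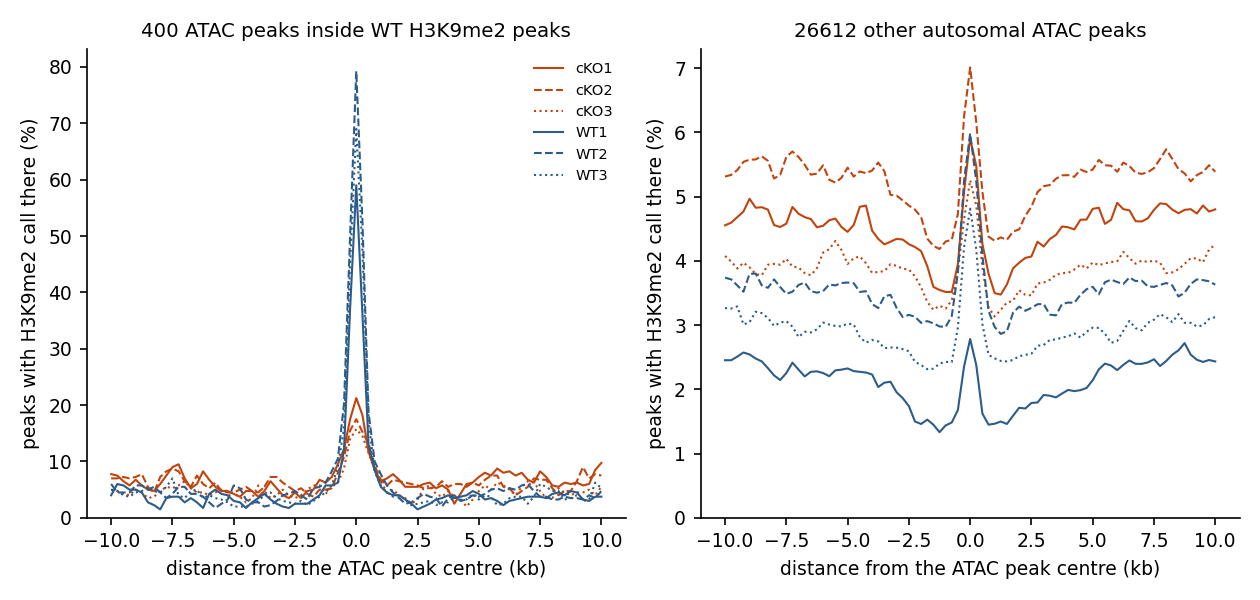
Percent of ATAC peaks at which a called H3K9me2 peak covers the position at each distance from the ATAC centre, for cKO1 to cKO3 (orange) and WT1 to WT3 (blue); left, the 400 WT-marked ATAC peaks, right, the other 26612, on a different vertical scale. The WT rise on the left follows from the choice. The cKO lines reach 15.8 to 21.3% on the left and 5.26 to 7.01% on the right.

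The WT-marked ATAC peaks were stronger ATAC peaks than the rest. Their median was 33.6 normalized tags (quartiles 16.3 and 71.4), against 24.3 (13.7 and 49.1) in the other peaks. Of the 400, 81 (20.3%, interval 16.4 to 24.5%) were in the upper 10% of all peaks by tag count, and 9.85% of the other peaks were. Their median fold over the local region was 18.05, against 13.7, and the median focus ratio, the part of a peak's tags that lie on the side of its centre proper to their strand, was 0.721, against 0.714. The difference was in how many tags a peak had and hardly in its shape. There is 1 tumour ATAC library, so these values have no replicate check.

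For the WT lists, which made the choice, the relation to ATAC strength lay mainly at the top of the scale. In the upper 10% of all peaks, 2.78% lay in at least 2 cKO lists and 2.998% in at least 2 WT lists. In the 9 lower groups of equal size the shares ran between 1.67 and 2.67% for cKO and between 0.926 and 1.78% for WT. For cKO the upper 10% was thus close to the highest of the lower groups. The median tag count was 24.3, 25.2, 25.9 and 28.4 for peaks in 0, 1, 2 and 3 cKO lists, and 23.9, 26.1, 32.3 and 36.3 for peaks in 0, 1, 2 and 3 WT lists. To compare single libraries, the median ATAC tag count of all centres each list held was taken. It was 24.8, 26.1 and 26.1 in cKO1 to cKO3 and 28.8, 25.7 and 28.3 in WT1 to WT3, so the genotypes overlapped. The means were 25.7 ± 0.751 in cKO and 27.6 ± 1.66 in WT (SD, n = 3 each, exact permutation p = 0.3, adjusted p = 0.5 over 4 measures). With H3K9me2 lists of equal length they were 24.6 and 27.9, a difference of -3.23 (exact permutation p = 0.1, unadjusted, the smallest possible). With the higher-scoring H3K9me2 peaks the difference turned to 1.38 (exact permutation p = 0.8). With only the higher-scoring 50% of each H3K9me2 list, 37 ATAC peaks qualified and their median was 23.5 tags (95% interval of ranks 15.9 to 34.5), against 24.3 in the other peaks. That interval holds both 24.3 and the 33.6 of the whole set, so these 37 do not settle the direction.

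**Figure D4:**
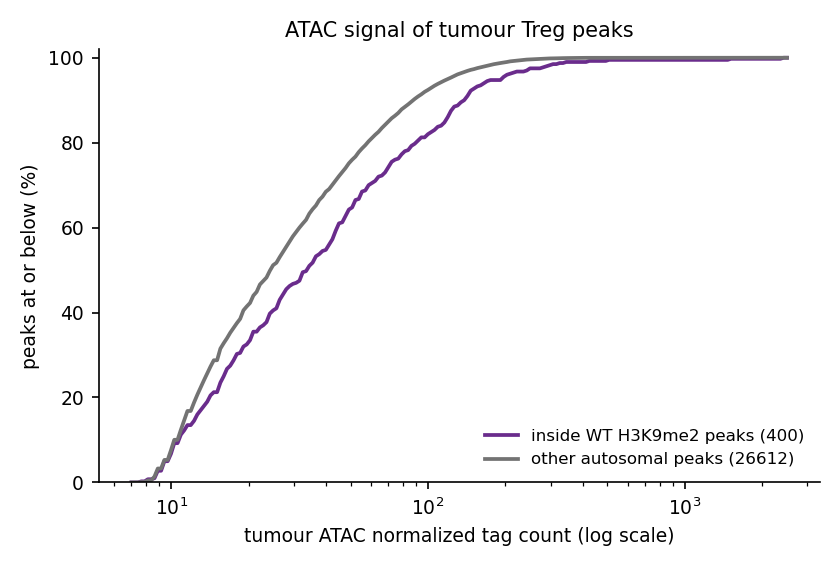
Cumulative percent of tumour ATAC peaks by normalized tag count (log scale) for the 400 WT-marked ATAC peaks (purple) and the other 26612 autosomal peaks (grey). The purple line runs to the right of the grey one over most of the range, with medians of 33.6 and 24.3 tags.

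By position, the WT-marked ATAC peaks lay less at gene ends and more between genes. Of the 400, 114 (28.5%, interval 24.1 to 33.2%) had their centre within 1 kb of an end of a protein-coding gene, beside 33.3% of all peaks and 33.4% of the other peaks. Another 129 (32.3%, 27.7 to 37.1%) lay inside a gene and farther from its ends, beside 37.4% of all peaks and 37.5% of the others. The remaining 157 (39.3%, 34.4 to 44.2%) were intergenic, beside 29.3% of all peaks and 29.1% of the others. Within 5 kb of a gene end lay 159 (39.8%), beside 47.6% of all peaks and 47.7% of the others. More than 50 kb from any gene end lay 84 (21.0%), beside 13.4% of all peaks and 13.3% of the others. The median distance to the nearest protein-coding gene end was 10142 bp, against 5894.5 bp. Of the 29 in all 3 WT lists, 10.3% lay at a gene end, and of the 37 that remained with the higher-scoring 50% of each list 13.5% did. Without the peaks of very high H3K9me2 listed further on, 21 of the 29 remain. The peaks so left out of the 29 were all intergenic, and the 10.3% was not taken again without them.

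At gene ends, WT-marked and other ATAC peaks alike were mostly at starts. Of the 94 whose gene has a listed strand, 91 (96.8%, interval 91.0 to 99.3%) lay at the start and 3 at the 3′ end, against 94.1% at the start for the other peaks, a value inside the interval. Their median ATAC count at gene ends was 68.0 tags, against 43.4 for the other peaks there. Inside genes the medians were 28.8 and 19.9, and between genes 20.8 and 17.7. The higher ATAC count was thus seen in all 3 kinds of place, while the places themselves shifted towards intergenic ones that had the lower counts. Coverage by at least 2 cKO lists was 10.5% (12 of 114) at gene ends, 9.30% (12 of 129) inside genes and 12.1% (19 of 157) between genes, beside 1.34%, 1.998% and 3.18% of all peaks in these places.

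**Figure D5:**
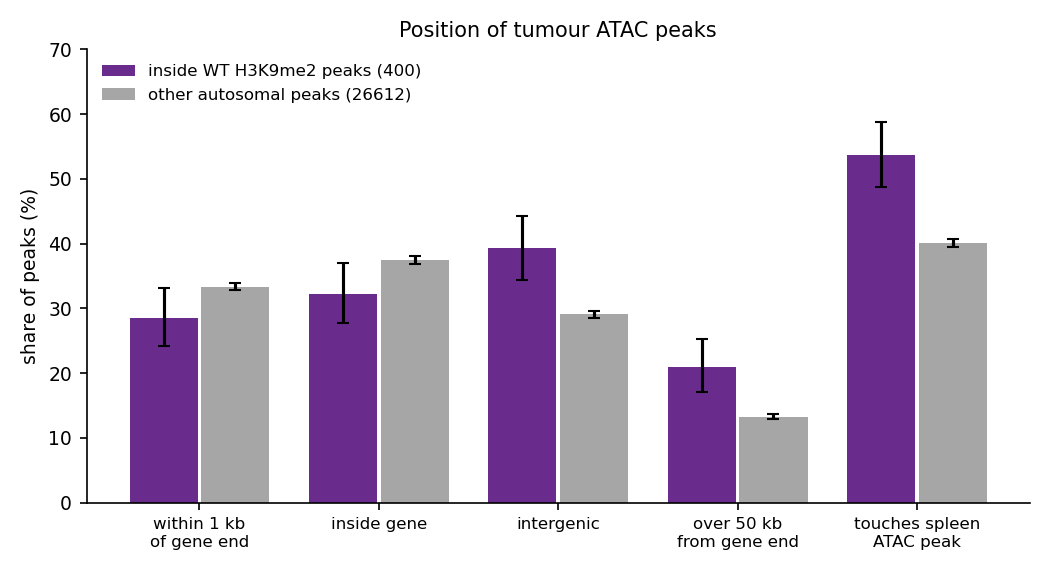
Share of the 400 WT-marked ATAC peaks (purple, left bar) and of the other 26612 autosomal peaks (grey, right bar) by distance to protein-coding genes, and share that touches a spleen Treg ATAC peak, with 95% exact binomial intervals. The purple bars are lower at gene ends (28.5% against 33.4%) and higher between genes (39.3% against 29.1%) and for touching a spleen peak (53.8% against 40.1%).

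More of them were also called in spleen. A spleen Treg ATAC peak touched 215 of the 400 (53.8%, interval 48.7 to 58.7%), beside 40.3% of all peaks and 40.1% of the other peaks. The share was 84.2% at gene ends, 41.9% inside genes and 41.4% between genes, against 65.3%, 28.2% and 26.5% for the other peaks. Part of this moved with ATAC strength. In 3 equal groups by tag count, the shares were 13.2%, 45.5% and 82.1%, low to high, against 11.5%, 33.5% and 75.6%. In the lowest group the interval of 7.41 to 21.2% held the value of the other peaks. Spleen peaks are 869 bp wide by the caller's estimate and tumour peaks 322 bp, so touching is easier than an overlap of equal widths, and a requirement that 50% of the tumour peak be covered gave 53.5%. Of all centres a list held, 42.9%, 42.1% and 44.9% touched a spleen peak in cKO1 to cKO3 and 47.5%, 44.4% and 49.2% in WT1 to WT3 (exact permutation p = 0.2, adjusted p = 0.5 over 4 measures). The ranges overlapped through cKO3 and WT2.

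Few of them lay at genes of the immune lists. In or within 5 kb of the genes of 14 lists of T cell, signalling, chromatin and cell-type genes and of widely expressed genes lay 646 tumour ATAC peaks. Of these, 7 were WT-marked (1.08%, interval 0.437 to 2.22%, against 1.48% of all peaks) and 8 lay in at least 2 cKO lists (1.24%, interval 0.536 to 2.43%, against 2.12% of all peaks), with none in both. Both intervals held the background share, so neither count stands apart from it. Treg identity genes had 4 WT-marked among 80 peaks (5.0%), NF-κB genes had 1 of 43, T cell receptor signalling genes 1 of 101 and the list of inhibitory receptors and their regulators 1 of 59, at the transcription factor gene Tox and at no receptor gene. The lists of tumour and effector Treg, JAK-STAT, PI3K-AKT-mTOR, H3K9 methylation machinery, naive and homing, widely expressed, B cell, myeloid, CD8 T and NK and melanocyte genes had 0. With 94 peaks at tumour and effector Treg genes and 69 at JAK-STAT genes, a count of 0 is little evidence at a background of 1.48%.

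The 4 Treg identity genes differed in where their peak lay. Besides the Entpd1 promoter described above, Izumo1r, which encodes folate receptor 4, a surface protein of Treg, had an ATAC peak of 68.2 tags in the intergenic space 4260 bp from its end (chr9:14908050-14908372). WT2 (2.10 H3K9me2 tags) and WT3 (2.87) held it and no cKO list did. Itgae, which encodes the integrin chain CD103 that binds E-cadherin, had an intragenic peak of 40.7 tags (chr11:73095517-73095839), held by WT2 (2.10) and WT3 (1.86) alone. Nrp1, which encodes neuropilin-1, a surface protein of thymus-derived mouse Treg, had a weak intragenic peak of 9.74 ATAC tags (chr8:128391377-128391699). It was held by cKO2 (8.41), WT1 (2.05) and WT2 (4.03), and by neither cKO1, cKO3 nor WT3. Of these 4 genes, Nrp1 was thus the single one with a cKO call at its peak.

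Both remaining T cell genes had weak intragenic ATAC peaks. Tox, a transcription factor of exhausted T cells, had 9.30 ATAC tags (chr4:6935122-6935444) and was held by cKO1 (2.42), WT1 (1.71) and WT2 (3.33). Fyn, a Src-family kinase of T cell receptor signalling, had 11.5 ATAC tags (chr10:39421027-39421349) and was held by WT1 (1.88) and WT2 (6.65) alone. In both, the ATAC centre lay close to the edge of the H3K9me2 peak, 2 bp inside it for Tox and 7 bp for Fyn, so these calls rest on a few bases.

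Among the gene families, zinc-finger genes had by far the most tumour ATAC peaks. Of 443 tumour ATAC peaks in or within 5 kb of the 407 genes of this family, 11 were WT-marked (2.48%, against 1.48% of all peaks) and 14 lay in at least 2 cKO lists (3.16%, against 2.12%). Neither share was tested. Each of the 11 was at a different gene (Zfp160, Zfp322a, Zfp458, Zfp595, Zfp677, Zfp719, Zfp78, Zfp850, Zfp869, Zfp930 and Zfp971). The peak 8 bp from an end of Zfp78 had 276.7 ATAC tags, with H3K9me2 peaks of 1.75 tags in WT2 and 4.40 in WT3. Zfp869 had 245.7 ATAC tags, with 10.3 in WT2 and 2.70 in WT3. No cKO list held either of these, whereas Zfp971 with 38.1 ATAC tags was held by cKO1 (4.04), cKO3 (1.88), WT1 (2.74) and WT2 (2.10). Olfactory and vomeronasal receptor, clustered protocadherin, histone and Hox genes had no WT-marked ATAC peak among 5 to 40 tumour peaks each, too few to set them apart from the 1.48% of all peaks.

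Among gene-end peaks that no cKO list held, the 6 highest by ATAC count were those at Qdpr, Zfp78, Zfp869 and the 3 genes that follow. Pdcd6, a calcium-binding adaptor, had 247.5 ATAC tags and H3K9me2 peaks of 1.40 tags in WT2 and 1.52 in WT3. Mon1b, a factor of endosome maturation, had 215.6 ATAC tags, with 1.88 in WT1 and 3.55 in WT3. Eef2kmt, which methylates elongation factor 2, had 197.5 ATAC tags, with 6.30 in WT2 and 2.03 in WT3. Their H3K9me2 peaks spanned 1.40 to 10.3 tags, and all of these ATAC peaks touched a spleen peak.

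At 12 gene ends, WT-marked ATAC peaks were also held by at least 2 cKO lists. Next to Prcp these were Mpp7, Chchd3, Wipi1, Tmem184c, Pigk, Zfp971, Gbp7, Shld1, Ccdc25, Fahd2a and Chst15, which are all the cases there were. Gbp7, an interferon-induced guanylate-binding protein, was the single one in all 3 cKO lists, with 3.43, 3.30 and 2.64 H3K9me2 tags in cKO1 to cKO3 and 2.10 and 4.73 in WT2 and WT3. Its ATAC peak of 30.5 tags lay 334 bp from the gene end. Shld1, a subunit of the shieldin complex of DNA repair, had 11.1 and 8.48 H3K9me2 tags in cKO1 and cKO3 and 2.91 and 4.55 in WT1 and WT2. Chchd3, a protein of the mitochondrial inner membrane, had 3.83 and 3.79 in cKO1 and cKO2 and 2.57 and 2.63 in WT1 and WT2. In Shld1 and Chchd3 the listed cKO values were above the listed WT values, whereas in Prcp they were below them and in Gbp7 they overlapped. A library without a call has no value here, so these values are not a comparison of genotypes.

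The 29 positions in all 3 WT lists lay a median of 33670 bp from a protein-coding gene end. Without the peaks of very high H3K9me2 described below, 21 of the 29 remain. The peaks so left out were all intergenic. All but that nearest to Rpusd4 (29506 bp) lay farther from a gene end than the median. The median was not taken again without them, so how far it rests on them was not tested. The highest ATAC count of all 27012 peaks, 2414.6 tags, lay at chr2:98666610-98666932, 1035099 bp from the nearest protein-coding gene end, that of Lrrc4c. Its H3K9me2 peaks had 7268 tags in cKO1 and 6357.1 in cKO3, and 2958.9, 5220.3 and 3558.8 in WT1 to WT3, while cKO2 listed none. The listed cKO values were above all WT values there. The intergenic peak nearest to Moxd2 (chr6:40890934-40891256, 170.9 ATAC tags) had 4.44 tags in cKO1 and 1.88, 2.63 and 5.07 in WT1 to WT3. At gene ends, Prdx3, a mitochondrial peroxiredoxin, had 161.6 ATAC tags with 1.54, 2.28 and 2.03 in WT1 to WT3 and no cKO call. Fbxo48, an F-box protein gene, had 123.1 ATAC tags with 1.88 in cKO3 and 6.16, 2.45 and 2.70 in WT1 to WT3. Susd1 had an intragenic peak of 104.9 ATAC tags with 1.71, 2.98 and 2.20 in WT1 to WT3 and none in cKO. Apart from the chromosome 2 peak, the H3K9me2 values named here were between 1.54 and 6.16 tags.

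The ATAC peaks in all 6 H3K9me2 lists numbered 4, and all 4 were intergenic. The peak 29506 bp from Rpusd4 (chr9:35305302-35305624, 422.8 ATAC tags) had 316.9, 322.3 and 308.0 H3K9me2 tags in cKO1 to cKO3 and 92.7, 167.5 and 139.3 in WT1 to WT3. The peak 137458 bp from Rab10 (chr12:3109809-3110131, 283.3 ATAC tags) had 683.2, 562.9 and 612.0 in cKO and 212.3, 394.2 and 293.8 in WT. In both, every cKO value was above every WT value. Both belong to the 12 peaks of very high H3K9me2 described below, where a gathering of reads by repeated sequence was not tested. The peak 61142 bp from Axin2, a negative regulator of Wnt signalling (chr11:109011764-109012086, 97.8 ATAC tags), had 16.8, 13.9 and 17.5 in cKO and 5.47, 18.9 and 12.8 in WT. The peak 10458 bp from Otulin, which cleaves linear ubiquitin chains (chr15:27641274-27641596, 63.3 ATAC tags), had 2.02, 6.27 and 3.77 in cKO and 1.88, 2.45 and 3.21 in WT. These last values overlapped between genotypes. The tags are those of the called H3K9me2 peak, whose length differs between lists.

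A group of 12 WT-marked ATAC peaks had a WT H3K9me2 peak of more than 50 normalized tags, far above the medians of 2.39 to 2.63. The limit of 50 was set after the values were seen. Of the 12, 10 were intergenic, Chl1 was intragenic with 501.2 ATAC tags, and 1 lay 744 bp from an end of 4931408C20Rik. The Chl1 peak was held by all 3 cKO lists with 147.3, 130.6 and 132.1 H3K9me2 tags and by WT2 with 108.7 and WT3 with 77.9. Near the start of chromosome 9, 3 ATAC peaks shared 1 H3K9me2 peak per WT list with 41.9, 73.2 and 63.9 tags in WT1 to WT3, and no cKO list held them. Of the first 10 tumour peaks by ATAC count, 4 were WT-marked, and of the first 100, 10 were. Whether these places carry repeated sequence that gathers reads in every library was not tested. Without the 12, the share in at least 2 cKO lists was 9.54% and the median ATAC count 33.4 tags, so neither rested on them.

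The rest of the set was scattered. Of the 400, 14 had another WT-marked ATAC peak within 10 kb and 44 had one within 100 kb, and 7 shared a WT H3K9me2 peak with another. They touched 238 genes, that is, lay inside them or within 1 kb of an end, and 5 of those genes had 2 of them (Gbp7, Immp2l, Itpr1, Rmdn2 and Tmem267). Itpr1 encodes an IP3-gated calcium channel of the endoplasmic reticulum. Its peaks inside the gene had 22.6 and 22.1 ATAC tags, the first in no cKO list and the second in 1.

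Membership depended on few bases in a part of the set. The centre lay a median of 131 bp inside the edge of the H3K9me2 peak that decided, and in 75 of 400 it was under 50 bp inside, while 104 other peaks missed by under 50 bp. Just inside were peaks at Cbll1 (1 bp inside, 101.8 ATAC tags), near Ube2e3 (2 bp, 16.4 tags) and in Tox (2 bp, 9.30 tags). Just outside, by 2 bp each, were peaks at Fntb (104.9 tags), at Uqcc3 (30.1 tags) and in Abi1 (12.0 tags), each with 1 WT list. Neither side was uniform in ATAC count or place.

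The promoters among them were less rich in CpG than other open promoters. The promoter windows that held a WT-marked centre were 101 of 98 genes, on the autosomes other than chromosome 18, which was not used for them. They had a median of 18 CpG sites (quartiles 13 and 21) and 58.7% GC. The 7112 windows that held another tumour ATAC centre had a median of 23 CpG sites (17 and 30) and 62.3% GC, and all 31396 windows had 7 (3 and 21) and 53.0%. So these promoters lay between open promoters and promoters at large. Starts close to each other, of 1 gene or of neighbouring genes such as Zfp869 and Gm51532, give overlapping windows. The same stretch can thus count more than once, and the values are a description.

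Motifs of factors that act in T cells were counted on both strands of these windows. The AP-1 motif TGANTCA was found in 11 of 101 windows (10.9%), against 5.09% of the windows with another ATAC centre and 7.84% of all windows. The RUNX motif TGTGGT was found in 14.9%, against 12.7% and 16.7%, and the ETS motif ACAGGAA in 10.9%, against 7.41% and 8.70%. The core of the CTCF motif, CC, any 3 bases, AG, any 2 bases and GGC, was found in 18.8%, against 14.1% and 8.73%. The letters of these 4 motifs do not contain one another, and none of the 4 printed promoters held any of them. Overlapping windows can count 1 match more than once, as the windows of Zfp869 and Gm51532 both count for AP-1 and for ETS. A match is a stretch of letters and says nothing of binding.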

How the data were processed

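H3K9me2 CUT&RUN of tumour Treg (3 cKO and 3 WT libraries) and ATAC-seq of tumour and spleen Treg (1 library each) were used as peak lists on build mm10. Per the submitters' processing notes, the tools were SAMtools 1.11, Bowtie2 2.4.2, deepTools, HOMER, Picard and Trim Galore 0.6.6, in no stated role. HOMER findPeaks was run by the authors on single libraries, per the file headers, without a control or pooling, in histone style for H3K9me2 (peak size 500 bp, tag threshold 5, local p of 0.05) and factor style for ATAC. The deposited tag count is a signal scaled to a common library total. The deposited score is in tags of its own library, the deposited fold is the ratio to the surrounding 10 kb, the deposited p-value is the caller's for that region, and the deposited focus ratio is a fraction of tags. Position and length are in bp (other unit), per the file headers. All these are the authors' values per peak. The deposited H3K9me2 lists hold 24.4 to 43.9% of the peaks their headers count, by a later filter that is not stated.

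Here the centre of each ATAC peak was intersected with merged H3K9me2 peaks on 19 autosomes, in Python 3.11.15 with NumPy 2.4.6, pandas 2.3.3 and SciPy 1.17.1. Positions of 20665 protein-coding genes came from a RefSeq table of GRCm38.p6 (mm10), and strands from promoter windows, which matched 16457 of them. Shares carry 95% Clopper-Pearson intervals, and libraries were compared by two-sided exact permutation tests, checked on simulated data. The planned search of all peaks for GC content and motifs was not run without a genome, and promoter windows took its place. The set and the gene lists were chosen with earlier results of these data known. Named peaks are the 8 of highest ATAC count in all 3 WT lists, those in all 6 lists, the 6 of highest ATAC count at gene ends with no cKO call, those in or within 5 kb of listed genes, and the 3 nearest to the edge on each side. The 12 gene ends held by at least 2 cKO lists, the 12 peaks of high H3K9me2 and the genes with 2 peaks were named after their values were seen. Part of the check of B cell markers is not reported here.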

Additional observations from a re-analysis of the deposited data

Results flagged for a closer look

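The X chromosome was outside the choice of peaks. Of its 606 tumour ATAC peaks, 17 (2.81%) lay in at least 2 cKO lists and 12 (1.98%, exact interval 1.03 to 3.43%) in at least 2 WT lists. The autosomal shares were 2.12% and 1.48%, and the interval of the WT share holds the autosomal value.

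On Y and unplaced sequences, 8 of 37 tumour ATAC peaks (21.6%) lay in at least 2 cKO lists and 4 (10.8%, interval 3.03 to 25.4%) in at least 2 WT lists. Those 4 lay in at least 2 lists of both genotypes. The autosomal shares were 2.12% for cKO and 1.48% for WT, and both sets of sequences are given here because calls appeared outside the chromosomes that the comparisons use.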

How the results depend on the processing

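The choice of the set moved its size most. It was 4015 with at least 1 WT list, 29 with all 3, 650 with any overlap in place of the centre, 37 with the higher-scoring 50% of each H3K9me2 list, 255 with lists of equal length and 237 with the higher-scoring 50% of the ATAC list. With 1 WT library left out and both others required, it was 112 to 193. The share in at least 2 cKO lists was 4.48% with at least 1 WT list, 31.0% with all 3, 18.9% with the higher-scoring H3K9me2 peaks and 7.84% with equal lengths, and 42.0% or 1.75% where 1 or all 3 cKO lists were asked for. Leaving out 1 library gave 3.0 to 15.2%. The median ATAC count was 27.0 tags with at least 1 WT list, 23.5 with the higher-scoring H3K9me2 peaks and 60.2 with the stronger ATAC peaks (other peaks 23.9, 24.3 and 49.1), and leaving out a WT library gave 33.6 to 34.95. The share touching a spleen peak was 46.0%, 43.2% and 76.4% in those settings (other peaks 39.3%, 40.3% and 64.5%), and leaving out a WT library gave 49.0 to 58.9%. The share at gene ends was 10.3% with all 3 WT lists, 13.5% with the higher-scoring H3K9me2 peaks, 40.1% with the stronger ATAC peaks, 39.8% at 5 kb in place of 1 kb and 34.5% over all genes (other peaks 33.3%, 33.3%, 48.7%, 47.7% and 39.3%, all higher), and leaving out a WT library gave 23.2 to 28.5%. The cause of these moves was not tested, except that fewer or more lists change the set by construction.

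The scaled difference between cKO and WT in libraries outside each choosing pair was -0.43. It became 0.0752 without scaling, 1.53 with equal lengths and 0.0531 without the 12 peaks of high H3K9me2. With 1 library left out it ran from -0.69 to -0.03. It was -71.9 with the higher-scoring H3K9me2 peaks and -0.59 with any overlap, with an exact permutation p of 0.1 each, the smallest that 3 against 3 allows. The value of -71.9 rests on the 37 ATAC peaks left in that setting, and the values compared are not independent. With the higher-scoring H3K9me2 peaks, 3 differences between cKO and WT over all held peaks also changed sign, to 1.38 for the median ATAC count, -0.40 for the intergenic over gene-end ratio and 0.0287 percentage points for the spleen share. With lists of equal length, the difference in median ATAC count grew to -3.23 and that in the ratio for the strongest ATAC peaks to -0.218. Each had an exact permutation p of 0.1. The cause was not tested. As a replicate block, same-numbered cKO and WT libraries gave the same difference of -0.43 (exact sign-flip p = 0.5, smallest possible 0.25). The numbers were not taken as pairs, since the correlations of same-numbered libraries were 0.46, 0.19 and 0.09, and cKO2 and cKO3 each correlated more with a library of another number. Of the 24 named peaks, 15 kept their calls with equal lengths and 4 with the higher-scoring H3K9me2 peaks. All 24 kept them with any overlap, which had to be so, since a centre inside a peak always overlaps it. Leaving out the 12 peaks of high H3K9me2, the tests over all held peaks and the groups by ATAC count were added after the data were seen. A position absent from a list can still hold tags, which these lists do not give.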

Other observations

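Among all autosomal spleen Treg ATAC peaks, 298 of 12800 (2.33%, exact interval 2.07 to 2.60%) lay in at least 2 cKO lists and 246 (1.92%, interval 1.69 to 2.17%) in at least 2 WT lists. Both H3K9me2 groups come from tumour Treg, so these values set spleen positions beside the mark of another tissue.

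Over all centres a list held, the share held among the upper 10% of ATAC counts was 1.25, 1.20 and 1.22 times the overall share in cKO1 to cKO3 and 1.45, 1.14 and 1.48 times in WT1 to WT3. The means were 1.23 ± 0.0225 in cKO and 1.36 ± 0.190 in WT (SD, n = 3 each, exact permutation p = 0.4, adjusted p = 0.5 over 4 measures). The share held between genes was 2.02, 1.58 and 1.74 times that at gene ends in cKO1 to cKO3 and 1.74, 1.60 and 1.37 times in WT1 to WT3 (exact permutation p = 0.5, adjusted p = 0.5). With the full H3K9me2 lists, both measures overlapped between the genotypes. The difference in the first measure, cKO minus WT, was -0.130 with these lists. It was -0.218 with lists of equal length and -0.339 with the higher-scoring H3K9me2 peaks. Both of these settings gave an exact permutation p of 0.1, unadjusted, the smallest that 3 against 3 allows. With any overlap in place of the centre the difference was -0.0615 (exact permutation p = 0.6).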
